A study of Mus musculus with 2 samples.

Results

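Chemokines are small secreted proteins that direct the movement of leukocytes, and chemokine receptors are the G protein-coupled receptors that read these signals. They are classed by the spacing of conserved cysteines into CC, CXC, C and CX3C ligands, and each class has its own receptors. Atypical receptors bind chemokines without the usual G protein signal and mainly remove or carry them. In the lung, chemokines from epithelium, endothelium, fibroblasts and macrophages guide neutrophils, monocytes, dendritic cells and lymphocytes into the tissue.

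The genes described here were chosen by name alone, namely every gene whose symbol is Ccl, Cxcl, Ccr, Cxcr, Xcr or Cx3cr with a number and an optional letter, together with Xcl1, Cx3cl1 and Ackr1 to Ackr4. This rule gave 56 of the 19278 genes in the table of genes, 34 of them ligands and 22 receptors. They were measured by droplet single-cell RNA sequencing in dissociated lungs of female BALB/c mice, which were 4 weeks old when they started either a control diet (CD; fat 13%, protein 27% and carbohydrate 60% of the energy) or a high-fat diet made with lard (HFD; 60%, 20% and 20%). Both diets lasted 16 weeks, so that the animals were 20 weeks old. Each diet was 1 library, and the number of mice behind a library is not given in the sources used here.

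The gene table holds 1 row per gene over both libraries together. It records which genes passed the authors' filter of at least 5 cells (0.0272% of the 18397 cells) and which belong to their 1000 highly variable genes. Being highly variable means that a gene varied between cells more than other genes of similar expression, at a mean normalised level above 0.01, and says nothing about CD against HFD or about which cells carried the transcript. Counts of single genes per cell, per cell type or per diet were not analysed here, so no chemokine is given a level or a difference between diets. All values below are counts of genes and are descriptions without a test, since genes are not replicates of the diets.

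The libraries held 8793 CD cells with 42470977 UMIs (unique molecular identifiers, the count of captured transcripts) and 9604 HFD cells with 50679251 UMIs. They shared 27 cell barcodes, which is 0.307% of the CD barcodes and 0.281% of the HFD barcodes. The tissue label was checked on the genes Sftpc (AT2 cells), Ager (AT1 cells), Ptprc (leukocytes), Col1a1 (fibroblasts) and Pecam1 (endothelium). All of these had a row, and all except Pecam1 were highly variable.

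The first question was which members of the family were detected in these lungs. GENCODE M21, which uses the authors' assembly GRCm38, annotates 62 symbols that fit the name rule, and 56 of them (90.3%) had a row. Of all protein-coding genes in this annotation, 72.3% had a row. The units differ, because 90.3% counts symbols with copies of a symbol joined, whereas 72.3% counts each annotated gene. Counted by gene, the share of the family would be lower than 90.3%. Every annotated receptor was present, namely all 10 CC, all 6 CXC and all 4 atypical receptors as well as Xcr1 and Cx3cr1. The 6 symbols without a row were ligand genes. These were the CC ligands Ccl21b, Ccl21c, Ccl26, Ccl27 and Ccl27b, and Cxcl11, which GENCODE M21 annotates as a polymorphic pseudogene. Without a row they could not be among the 1000 highly variable genes, which were chosen from the genes that passed the filter.

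Several of these 6 are copies of genes that did have a row. Ccl21a encodes a ligand of Ccr7 that guides dendritic and T cells, and the annotated Ccl21b transcript differed from it at 2 of 402 bases (99.5% identity). Ccl27a and Ccl27b differed at 3 of 425 bases (99.3%). Reads from such copies are difficult to assign, so the rows of Ccl21a and Ccl27a are uncertain as measures of a single gene. The annotation also places 7 genes of the family on scaffolds outside the assembled chromosome sequences, and none of these 7 had a row. Of the 56 members, 18 overlap another annotated gene, 17 of them a gene on the opposite strand. A gene on the same strand is overlapped by 3 members, Ccr9, Cx3cr1 and Ackr1, of which Ccr9 and Cx3cr1 overlap genes on both strands.

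**Figure D1:**
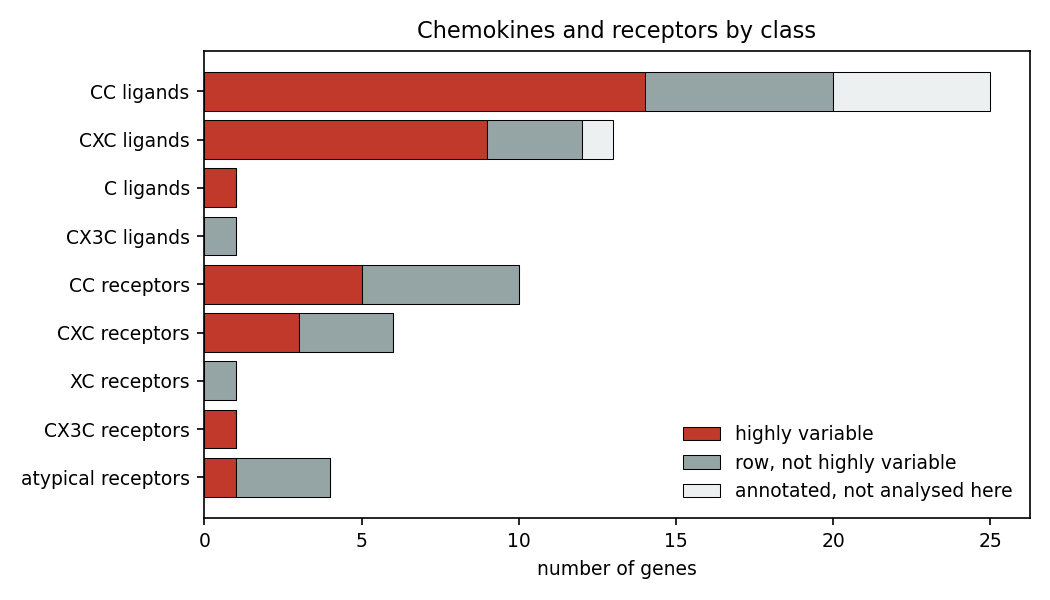
Number of genes (x axis) in each class of chemokine or receptor (y axis), split into highly variable genes, other genes with a row and annotated genes without a row. The CC ligands are the largest class with 14 highly variable genes of 20 with a row, and all classes of receptors are complete.

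The family was then compared with all other genes for the highly variable property. Of the 56 members, 34 (60.7%) were highly variable, whereas 5.19% of all 19278 genes were. Ligands were highly variable more often than receptors, with 24 of 34 (70.6%) compared to 10 of 22 (45.5%). Among the ligands, the shares in the CC class (14 of 20, 70%) and the CXC class (9 of 12, 75%) were close to each other. Among the receptors, 9 of the 18 conventional members (50%) and 1 of the 4 atypical members (25%) were highly variable. Genes at a mean normalised level of 0.01 or less could not enter the selection, and neither their number nor the levels of the members were analysed here.

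The 4 other gene families that were counted by name lay between the chemokines and the background. Protein-coding genes named Il with a number, the interleukins and their receptors, were highly variable in 16 of 64 cases (25%). Genes of the TNF superfamily and its receptors were so in 5 of 31 cases (16.1%), collagen chain genes in 9 of 40 (22.5%) and H2 genes, which encode the mouse histocompatibility proteins, in 5 of 25 (20%). Each of these shares was below that of the chemokine receptors alone.

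**Figure D2:**
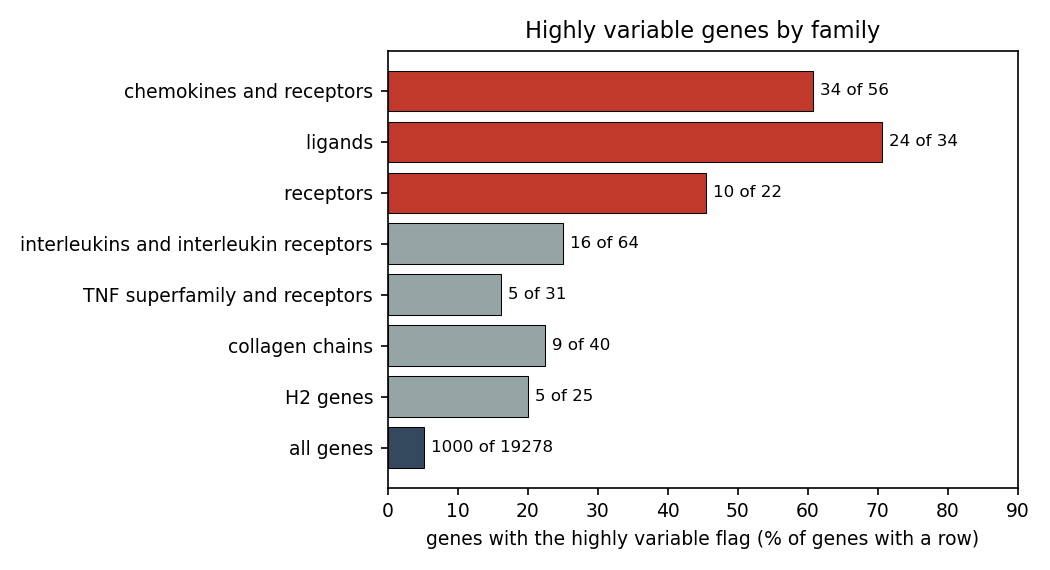
Percent of genes with a row that were highly variable (x axis) for chemokines and receptors together and apart (red), for other families (grey) and for all genes (dark blue), with the number of genes beside each bar. Ligands reach 70.6%, receptors 45.5% and all genes 5.19%.

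The ligands were first examined by the cells they attract. Of the CXC ligands that recruit neutrophils through Cxcr2, Cxcl1, Cxcl2 and Cxcl3 were highly variable and Cxcl5 was not. Cxcl15, a chemokine of the lung epithelium also known as lungkine, was highly variable as well. Cxcl10, an interferon-induced ligand of Cxcr3 on T and NK cells, was highly variable, whereas Cxcl9, which shares this receptor, was not. Cxcl12, which retains Cxcr4-bearing cells in tissue, and Cxcl13, which attracts B cells through Cxcr5, both belonged to the highly variable genes. So did Cxcl14 and Cxcl17, which are made largely by epithelia. Cxcl16, a membrane-bound ligand of Cxcr6, did not.

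The CC ligands that attract monocytes through Ccr2, Ccl2, Ccl7 and Ccl12, were all highly variable. The same was true of Ccl3, Ccl4 and Ccl5, which attract macrophages and T cells, and of Ccl6 and Ccl9, mouse ligands of Ccr1. Ccl11 and Ccl24, the eotaxins that attract eosinophils through Ccr3, were both highly variable, as were Ccl17 and Ccl22, the ligands of Ccr4 on T helper and regulatory T cells. Ccl8, an agonist of Ccr8 in the mouse, was highly variable and Ccl1, the other ligand of this receptor, was not. For Ccr7, the receptor that leads cells to lymphatics and lymph nodes, Ccl21a was highly variable and Ccl19 was not.

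The remaining CC ligands are known mainly from mucosal and skin surfaces. Ccl20, which attracts Ccr6-bearing cells to epithelia, Ccl25, the ligand of Ccr9 in thymus and gut, and Ccl27a and Ccl28, the ligands of Ccr10, had rows and were not highly variable. Xcl1, the only C ligand and a product of NK and CD8+ T cells, was highly variable. Cx3cl1 (fractalkine), a membrane-anchored ligand, was not.

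Among receptors, Ccr1 and Ccr2 of monocytes and macrophages, Ccr7 of migrating dendritic and naive T cells, and Ccr9 were highly variable. The CXC receptors in this group were Cxcr2, the main neutrophil receptor, Cxcr3 of activated T and NK cells and Cxcr6 of resident lymphocytes. Cx3cr1, the fractalkine receptor of monocytes and some macrophages, was also highly variable. Those that had a row without this property were Ccr3, Ccr4, Ccr6, Ccr8, Ccr10, Cxcr1, Cxcr4, Cxcr5 and Xcr1, the last of which marks cross-presenting dendritic cells. Of the atypical receptors, Ackr3, which scavenges Cxcl12, was highly variable, whereas Ackr1 of venules, Ackr2, which clears inflammatory CC ligands, and Ackr4, which clears Ccl19 and Ccl21, were not.

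Next, each receptor was set beside its ligands, for 17 receptors with established ligands. Both sides held a highly variable gene for 6 receptors, among them Ccr1, Ccr2, Ccr7, Cxcr2 and Cxcr3. For 6 other receptors only a ligand was highly variable, and these were Ccr3, Ccr4, Ccr8, Cxcr4, Cxcr5 and Xcr1. For Ccr9, Cxcr6 and Cx3cr1 the receptor was highly variable and its listed ligand was not. For Ccr6 and Ccr10 neither side was. Among the 7 receptors with a single listed ligand, 0 had the property on both sides, and 3 of them were highly variable themselves. The receptors with several ligands had more chances to be matched, so the 6 matched receptors are not a measure of how often ligand and receptor vary together. Cxcl14, Cxcl15, Cxcl17, Cxcr1 and the atypical receptors were not placed in a pair.

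**Figure D3:**
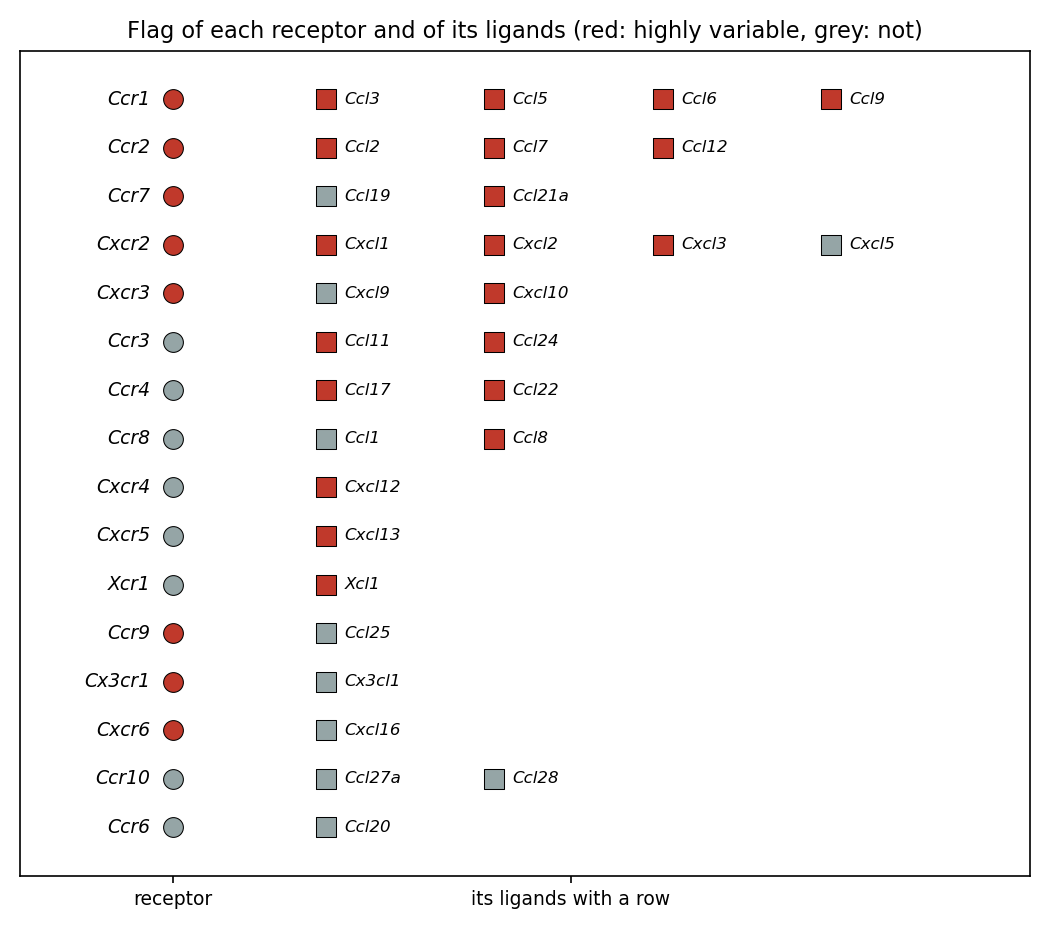
The receptors named in the text (circles, left) and their ligands with a row (squares, right), coloured red where highly variable and grey where not. The 5 receptors at the top are red with at least 1 red ligand, and Ccr10 and Ccr6 at the bottom are grey on both sides.

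Many chemokine genes lie side by side in the genome, where they arose by duplication, so the property was also described by position. The CC ligands of chromosome 11 form a pair of groups. In the first (chr11:82035571-82305690 in GRCm38), Ccl2, Ccl7, Ccl11, Ccl12 and Ccl8 were highly variable and only Ccl1, at the distal end, was not. In the second (chr11:83525778-83664683), all 5 genes, Ccl5, Ccl9, Ccl6, Ccl3 and Ccl4, were highly variable. On chromosome 5 (chr5:90759360-90905938), Cxcl3, Cxcl15, Cxcl1 and Cxcl2 were highly variable and Cxcl5, at the proximal end, was not.

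Neighbours did not always share the property. On chromosome 8 (chr8:94745590-94812036), Ccl22 and Ccl17 were highly variable and Cx3cl1, which lies between them, was not. On chromosome 1 (chr1:74153989-74194631), Cxcr2 was highly variable and its neighbour Cxcr1 was not. In the receptor group of chromosome 9, Ccr9, Cxcr6, Ccr1 and Ccr2 were highly variable, while Xcr1 and Ccr3, which lie among them, were not. Cxcl9 and Cxcl10 on chromosome 5 also differed, and Ccl21a differed from Ccl19 and Ccl27a on chromosome 4. Counted over these 8 groups, 24 of 33 genes were highly variable (72.7%), compared to 10 of the 23 members elsewhere (43.5%) and 5.19% of all genes. The groups were delimited with these results in view, so the difference between 72.7% and 43.5% is not a measure of an effect of position.

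**Figure D4:**
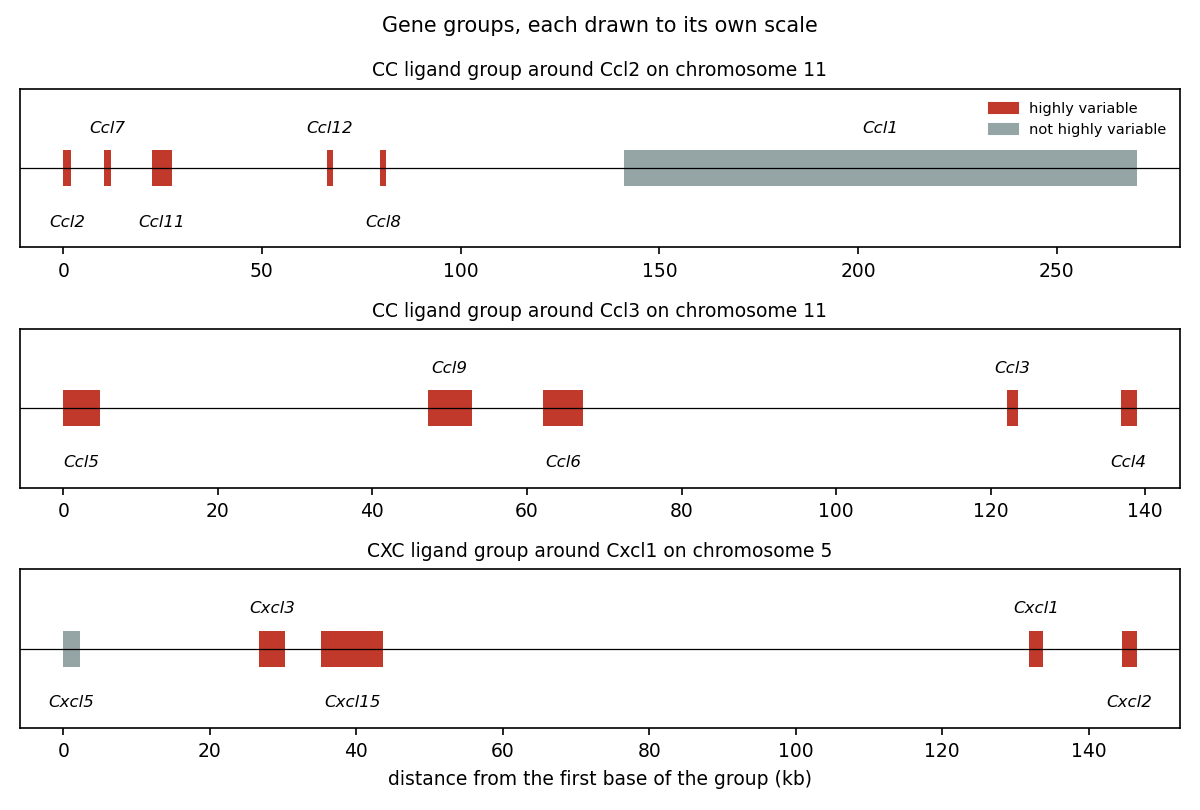
Members of 3 gene groups drawn to scale as distance in kb from the first base of each group (x axis), red where highly variable and grey where not. Each gene of the Ccl3 group is red, and the Ccl2 and Cxcl1 groups hold 1 grey gene each.

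The paper studied the NF-kappaB subunit p65 in breast cancer cells and not in these lung libraries. With p65 in view, the sequence around the start of each gene was read for the kappaB consensus, the 10-base motif that NF-kappaB dimers recognise. RefSeq windows in GRCm38.p6, from 250 bases before to 50 bases after a start, were at hand for 43 of the 56 members. Some genes have several starts, and a match in any of their windows was counted. The consensus occurred on either strand in 12 of the 43 (27.9%), in 9.55% of all 27025 genes with a window and in 12.2% of the genes with a window and a row. It was found for 6 of the 25 highly variable members (24%) and for 6 of the 18 others (33.3%). With only the most upstream window of each gene, the order turned around, to 6 of 25 (24%) and 4 of 18 (22.2%). In that window the consensus occurred in 8.19% of all genes with a window and in 10.1% of those that also had a row. The TATA box TATAAA, searched on both strands, occurred in 13 of the 43 members (30.2%), in 15.7% of all genes with a window, in 10.3% of those that also had a row and in 21.5% of the highly variable genes. The kappaB consensus occurred in 14.6% of the highly variable genes. A match is a string of letters and not evidence of binding. The 13 members without a window included Ccl2, Ccl4, Ccl5, Ccl7, Ccl11, Ccl24, Cxcl5, Cxcl16, Cxcl17, Ccr7, Ccr10 and Cxcr5. The matched members that were not highly variable were Ccl1, Ccl20, Ccl27a, Ccr3, Ccr6 and Ackr2.

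The highly variable members with a match were Cxcl1, Cxcl2, Cxcl3, Cxcl10, Ccl9 and Ccr1. The neighbouring genes Cxcl1, Cxcl2 and Cxcl3 carried the same letters GGGAATTTCC upstream of the start. These letters were not particular to them, since Ccr3, which was not highly variable, carried them upstream on the opposite strand. A match of Cxcl10 read GGGAAATTCC, as the matches of Cxcl1, Cxcl2 and Cxcl3 on the opposite strand did. Stretches of 4 of these promoters are shown because they allow the site to be compared between a pair of related CXC ligands, a CC ligand and a receptor. At most 2 genes per class were taken, those whose match lies nearest to the start, and capitals mark the kappaB match, with overlapping matches on both strands joined. The match lies 71 to 61 bases before the start in Cxcl1 (chr5:90891129-90891228, plus strand), 73 to 63 bases in Cxcl3 (chr5:90785983-90786082, plus strand), 35 to 26 bases in Ccl9 (chr11:83578637-83578717, minus strand) and 74 to 65 bases in Ccr1 (chr9:123968713-123968812, minus strand).
Cxcl1: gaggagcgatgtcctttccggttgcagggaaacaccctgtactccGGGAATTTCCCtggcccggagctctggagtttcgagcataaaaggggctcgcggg
Cxcl3: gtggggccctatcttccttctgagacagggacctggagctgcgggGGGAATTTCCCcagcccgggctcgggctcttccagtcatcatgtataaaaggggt
Ccl9: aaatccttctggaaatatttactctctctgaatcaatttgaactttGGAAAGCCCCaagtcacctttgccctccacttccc
Ccr1: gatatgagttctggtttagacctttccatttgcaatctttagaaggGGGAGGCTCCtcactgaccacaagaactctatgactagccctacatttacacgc

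In Cxcl1 and Cxcl3 the match is the same run of 11 bases at nearly the same distance from the start, whereas Ccl9 and Ccr1 carry matches of different letters. The match of Ccl9 lies on the opposite strand and that of Ccr1 on the strand of the gene.

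Finally, other genes of the pathway were examined. Of 5 genes of the chemokine system outside the name rule, 4 had a row. Of these, 3 (75%, beside 5.19% of all genes) were highly variable. They were the chemokines Pf4 (Cxcl4) and Ppbp (Cxcl7), which platelets release, and the receptor-like Ccrl2. The chemerin receptor Cmklr1 had a row and was not highly variable, and the receptor-like Ccr1l1 had no row. For the machinery downstream of the receptors, the share was nearer to that of all genes than the share of the chemokine family was. Of 29 genes for G proteins, arrestins, receptor kinases, G protein regulators and migration effectors, all had a row and 3 (10.3%) were highly variable, beside 5.19% of all genes. These were Rgs1, Rgs2 and Rgs16, which belong to the regulators that shorten G protein signals. None of the 4 G protein genes, 6 arrestin and receptor kinase genes or 12 migration effectors was highly variable.

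Of 13 NF-kappaB subunits, inhibitors and kinases, 2 (15.4%, beside 5.19% of all genes) were highly variable, the nuclear inhibitor Nfkbiz and the feedback inhibitor Tnfaip3. The 5 subunits, including Rela, which encodes p65, had rows and were not. Of 9 leukocyte adhesion genes, 8 had a row and 5 of these (62.5%) were highly variable, a share close to that of the chemokine family (60.7%) and beside 5.19% of all genes. They included the selectins Sele and Selp and the endothelial ligands Icam1 and Vcam1, which hold leukocytes on the vessel wall. Selplg, Icam2 and Glycam1 had a row and were not highly variable, and Madcam1 had no row.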

How the data were processed

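The authors aligned the reads to mm10 (GRCm38.p6) with Cell Ranger and merged the libraries with Seurat (version 4.1.0 in the submitters' processing notes). They kept cells with at most 20% mitochondrial RNA, at least 500 UMIs and at least 250 genes, and genes in at least 5 cells. Their methods describe no doublet filter, and none was applied here, since a caller needs counts of single genes. The 1000 highly variable genes were chosen after normalisation, without mitochondrial, ribosomal protein and cell cycle genes. The deposited counts of UMIs and of detected genes per cell are not normalised, and gene properties were deposited as yes or no. Labels and methods differ on whether the kit read the 3' or the 5' end, which was not settled.

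Members were found by symbol. All 56 identifiers were found in GENCODE M21, which gave positions. Promoter windows came from RefSeq (GRCm38.p6). The kappaB consensus had G at positions 1 to 3, a purine, any 2 bases, 2 pyrimidines and 2 C. Members were to be named, although some genes are not reported here, and pathway genes only where highly variable or as examples. Members, lists, families and comparisons were chosen with earlier results of these data known. Shares are gene counts without a test. The calculations were tested on simulated data. Tables were handled with pandas 2.3.3 under Python 3.11.15, intervals came from scipy 1.17.1 (with numpy 2.4.6), and plots were drawn with matplotlib 3.10.9. The counts behind the libraries set the precision of the filter: a transcript in fewer than 5 of 18397 cells has no row.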

Additional observations from a re-analysis of the deposited data

How the results depend on the processing

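Of 15 alternative values, 13 stayed within the 95% exact binomial interval of the reported share or, for counts, within 1.5 times. The share of annotated symbols with a row ranged from 89.6% to 93.3%, and that of highly variable members from 60.7% to 63.5%. Counting copies as 1 gene changed nothing, because only 1 copy of each had a row, and says nothing about stability. Taking protein-coding genes alone moved the background share of highly variable genes from 5.19% (1000 of 19278) to 5.90% (941 of 15937). Restricting the pairs to receptors with a single listed ligand gave 0 matched receptors of 7, in place of 6 of 17, because each of the 6 matched receptors has several listed ligands. The kappaB search itself, its stricter consensus, the most upstream window and reference chromosomes only were all chosen after seeing the data. The stricter consensus gave 10 members with a match and the most upstream window 10, in place of 12. Thinning of cells could not be run without values of single genes. No paired analysis was possible because there was only 1 library per diet. Depth limits which genes have a row, and a gene without one may still be expressed in fewer than 5 cells.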
